A study of Mus musculus with 28 samples.

Results

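The marks 5-hydroxymethylcytosine (5hmC) and 5-methylcytosine (5mC) were set against each other in bone marrow cells of mice that lack both Tet1 and Tet2 (double knockout, DKO). The lists used were both 5hmC and both 5mC peak lists of DKO cells, which is 4 of the 28 samples and 4 of the 11 peak lists of the series, restricted to chromosomes 1 to 19. They hold 538253 of the 1479290 peaks in those lists. The study concerns malignancy after combined loss of the 2 genes. All groups used here were LK cells, the labels' name for a bone marrow fraction, of C57BL/6 mice 6 to 10 weeks old: DKO, Tet2 knockout (Tet2KO) and wild type (WT). DKO and WT had 2 libraries per mark, and Tet2KO had 2 for 5hmC and 1 for 5mC. The labels state neither how the alleles were deleted nor whether the libraries of a group came from different animals. Any p-value therefore measures only the spread between these libraries, which may be technical. No gene annotation of the build was used, so whether the peaks bear out the loss of either gene was not checked.

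TET enzymes are dioxygenases that oxidise 5mC to 5hmC and further to forms that repair can replace with unmodified cytosine. Mammals have Tet1, Tet2 and Tet3, so a cell without Tet1 and Tet2 can still carry Tet3. In blood cells 5hmC is known to lie over gene bodies and enhancers, while 5mC covers most CpG sites of the genome outside CpG islands. The study captured 5hmC by chemical labelling (hMe-Seal) and methylated DNA with an antibody (MeDIP). Both assays show where a mark is enriched and not what share of cytosines carries it.

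In DKO cells the 5hmC peaks were long and left many bins empty, and the 5mC peaks were short and spread widely. The 5hmC libraries had 129556 and 143346 peaks that covered 110 and 105 Mb, with median widths of 706 and 624 bp. The 5mC libraries had 146192 and 119159 peaks that covered 44.6 and 43.1 Mb, with median widths of 275 and 331 bp. Each 5hmC library thus covered over 100 Mb and each 5mC library under 50 Mb, and the median widths of the marks did not overlap. Of 24147 bins of 100 kb, 49.5% and 47.1% held no 5hmC peak, against 21.8% and 24.6% without a 5mC peak. Read depth is not given in the sources used here, and depth and assay can both change the number and width of peaks.

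About 1 in 5 5hmC peaks of DKO cells touched a 5mC peak, which was more often than after 5mC peaks had been moved along the chromosome. In 5hmC replicate 1, 22.8% of peaks (95% Wilson interval 22.6 to 23.03) shared at least 1 bp with a 5mC peak of replicate 1 and 20.1% (19.9 to 20.3) with one of replicate 2. In 5hmC replicate 2 the shares were 21.02% (20.8 to 21.2) and 18.6% (18.4 to 18.8). The intervals cover counting error only. With the 5mC list moved by 100 kb in either direction, the shares for the same pairs were 14.02%, 12.4%, 12.7% and 11.2%. Every deposited value lay above every moved value. The 5mC list with more peaks, replicate 1, gave the higher share with both 5hmC libraries.

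The reverse share was steadier between libraries. Of 5mC peaks in DKO, 22.9% of replicate 1 and 24.0% of replicate 2 touched a 5hmC peak of replicate 1, and 22.8% and 24.0% touched one of replicate 2. Moving the 5hmC list by 100 kb gave 13.6%, 14.3%, 13.4% and 13.98% for the same pairs. By length, both marks shared 10.3, 10.2, 10.1 and 10.0 Mb, which was 2.13, 2.16, 2.21 and 2.26 times the length shared after the move. That length was on average 9.44% of what 5hmC covered and 23.2% of what 5mC covered. For scale, 81.6% of 5hmC peaks of replicate 1 touched 5hmC of replicate 2 and 66.2% of 5mC peaks of replicate 1 touched 5mC of replicate 2. Overlap between the marks was thus well below overlap within a mark.

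**Figure D1:**
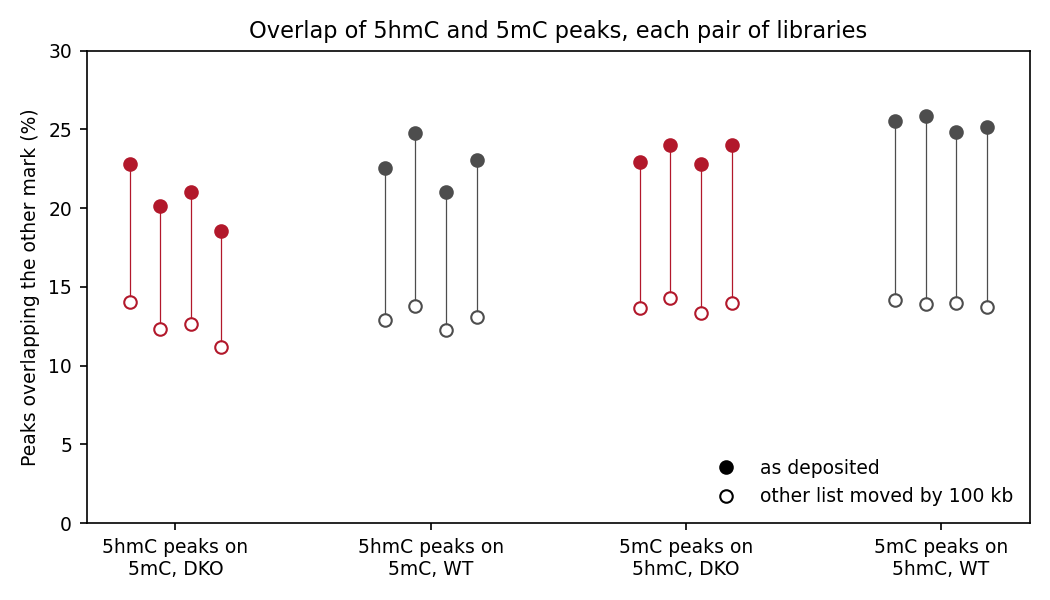
Share of peaks that touch the other mark (vertical axis, %), 1 point for each pair of a 5hmC and a 5mC library, as deposited (filled) and with the other list moved by 100 kb (open), for DKO (red) and WT (grey). DKO pairs lie between 18.6% and 22.8% for 5hmC peaks and between 22.8% and 24.0% for 5mC peaks, above all moved values.

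Regions called in both libraries of a mark were then sorted by the other mark. In DKO, 101754 of 159050 merged 5hmC regions (64.0%) had a peak in both libraries. Of these, 19378 (19.04%) lay on 5mC peaks of both 5mC libraries, 9735 (9.57%) on those of 1 library, and 72641 (71.4%) on none. For 5mC, 93975 of 167440 regions (56.1%) had a peak in both libraries. Here 21318 (22.7%) lay on 5hmC of both libraries, 6480 (6.90%) on that of 1, and 66177 (70.4%) on none. Most regions of each mark in DKO cells therefore carried no called peak of the other mark. The median width was 1015 bp for 5hmC regions on 5mC of both libraries and 773 bp for those without 5mC.

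The widest region with both marks in DKO lay on chromosome 8 at 123065145 to 123087814 (mm9, 22670 bp). In the DKO libraries 5hmC covered 22575 and 22290 bp of it, and in the WT libraries 21715 and 21837 bp. Within it 15 and 14 5mC peaks covered 5722 and 6741 bp in DKO and 13 and 14 covered 5611 and 6111 bp in WT. The region was thus nearly filled by 5hmC and filled to a smaller part by 5mC in both genotypes. The next by width spanned 12634 bp of chromosome 8 (126796124 to 126808757) and 10356 bp of chromosome 15 (73000757 to 73011112).

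The widest 5hmC region without 5mC in DKO lay on chromosome 11 at 95209627 to 95220308 (10682 bp). The DKO libraries had 10539 and 10020 bp of 5hmC in it, the WT libraries had 10015 and 10008 bp, and of the 5mC lists only WT replicate 2 reached into it, by 30 bp. On chromosome 5 at 114317566 to 114325695 (8130 bp), DKO had no 5mC peak, while the WT libraries had 316 and 218 bp of 5mC. The widest 5mC region without 5hmC lay on chromosome 17 at 39979831 to 39983898 (4068 bp), with 4068 and 3985 bp of 5mC in DKO, 4020 and 3967 bp in WT and no 5hmC peak in either genotype. The longest 5hmC-free 5mC region was thus much shorter than the longest 5mC-free 5hmC region. These regions were picked by width and are examples, with no test.

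By distance between the marks, the lead in cumulative share over the moved lists was already reached at direct contact. In DKO the median gap from a 5hmC peak to the nearest 5mC peak was 1858 and 2381 bp for 5hmC replicate 1 and 1976 and 2518 bp for replicate 2, against 2728, 3424, 2862 and 3580 bp with 5mC moved. The mean of the 4 deposited gaps was 2183 bp, and 4568 bp when peaks scoring under 100 were left out. On average 20.6% of 5hmC peaks touched a 5mC peak, 8.07 percentage points above the moved lists. Within 1 kb the share was 36.5%, or 7.96 points above, and within 2 kb it was 48.3%, or 8.23 points above. The lead thus stayed near 8 points from contact to 2 kb. Peaks with a gap above 0 and up to 1 kb made up 15.9% of all 5hmC peaks as deposited and 16.0% after the move. More deposited than moved peaks touched, so fewer were left to fall in this band. These shares therefore do not tell whether peaks without contact also lay nearer to 5mC than after the move. Beyond 10 kb (84.2% as deposited, 78.4% moved) the curves came together, and 99.8% of 5hmC peaks had 5mC within 100 kb.

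From 5mC to 5hmC the lead in cumulative share was largest at contact, and a tail of 5mC peaks lay far from 5hmC, as it did after the move. The median gap was 2900 and 2580 bp for 5mC replicate 1 and 2750 and 2442 bp for replicate 2, and 4367 bp on average after the move. The lead over the moved lists was 9.62 points at contact, 8.75 points at 1 kb and 8.46 points at 2 kb. Within 100 kb of a 5hmC peak lay 90.5% of 5mC peaks as deposited and 89.8% after the move, and within 500 kb 97.6% in both.

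**Figure D2:**
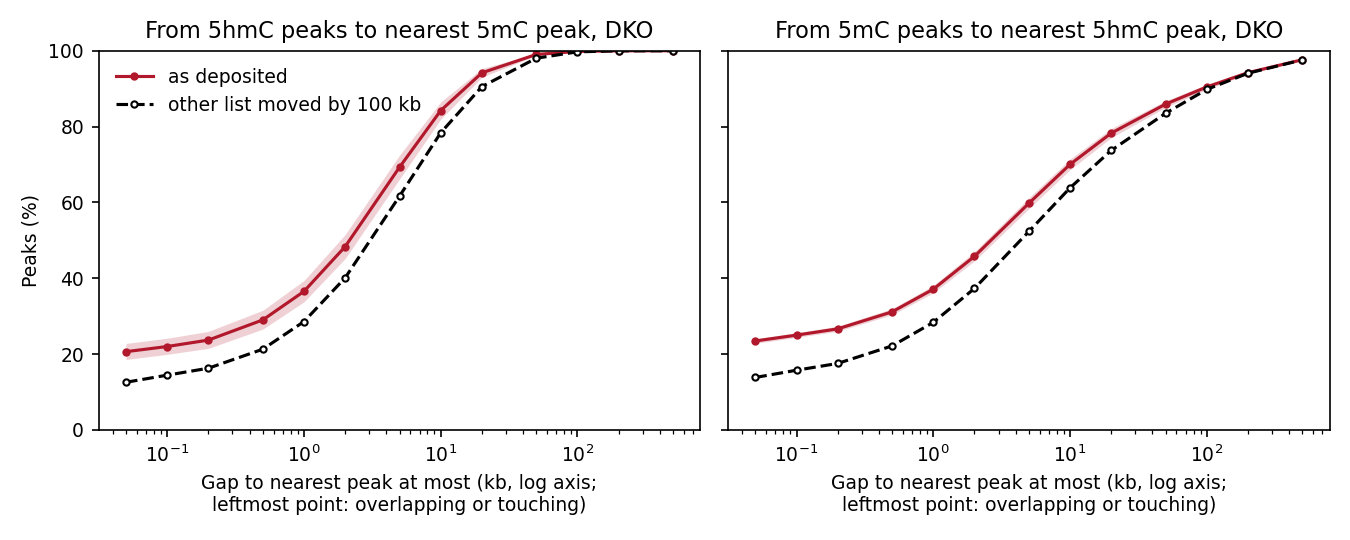
Cumulative share of DKO peaks (vertical axis, %) by gap to the nearest peak of the other mark (horizontal log axis, kb), mean of 4 pairs as deposited (red, band from lowest to highest pair) and moved by 100 kb (black, dashed). The curves are 8.07 points apart at contact and 7.96 points apart at 1 kb for 5hmC, and meet near 100 kb.

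Moving one list in small steps showed how local the sharing was. In DKO the length shared by the marks was 10.1 Mb as deposited. After a move of 0.3 kb it was 80.7% of that, after 0.5 kb 65.4% and after 1 kb 57.8%. From there it changed slowly, to 53.1% at 10 kb, 45.7% at 100 kb and 23.7% at 5 Mb. The curve therefore had a steep part within 1 kb, about the width of a peak, and a shallow part over megabases. The choice of distance sets the ratio of deposited to moved overlap, which was 1.88 with a move of 10 kb and 3.04 with 1 Mb, beside 2.19 with 100 kb.

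Within 5hmC peaks of DKO, 5mC peaks lay most often near the middle. The density of 5mC peak centres within 250 bp of a 5hmC centre was 2.10, 2.18, 2.08 and 2.17 times the level at 2 to 5 kb in the 4 DKO pairs. At 500 to 1000 bp it was 0.938, 0.923, 0.948 and 0.939 times that level, so a shallow dip flanked the centre in every pair. Of the 5mC peaks that touched a 5hmC peak, 75.1%, 68.6%, 69.6% and 62.1% lay wholly inside. Of 5mC centres inside 5hmC peaks, 30.5% to 31.4% fell in the middle 20% of the peak's length. Between 7.003% and 7.44% fell in the outermost 10% at either end together, where an even spread would give 20%. In most touched 5hmC peaks there was 1 5mC peak, and 8.25% to 12.3% held 2 or more, up to 10.

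**Figure D3:**
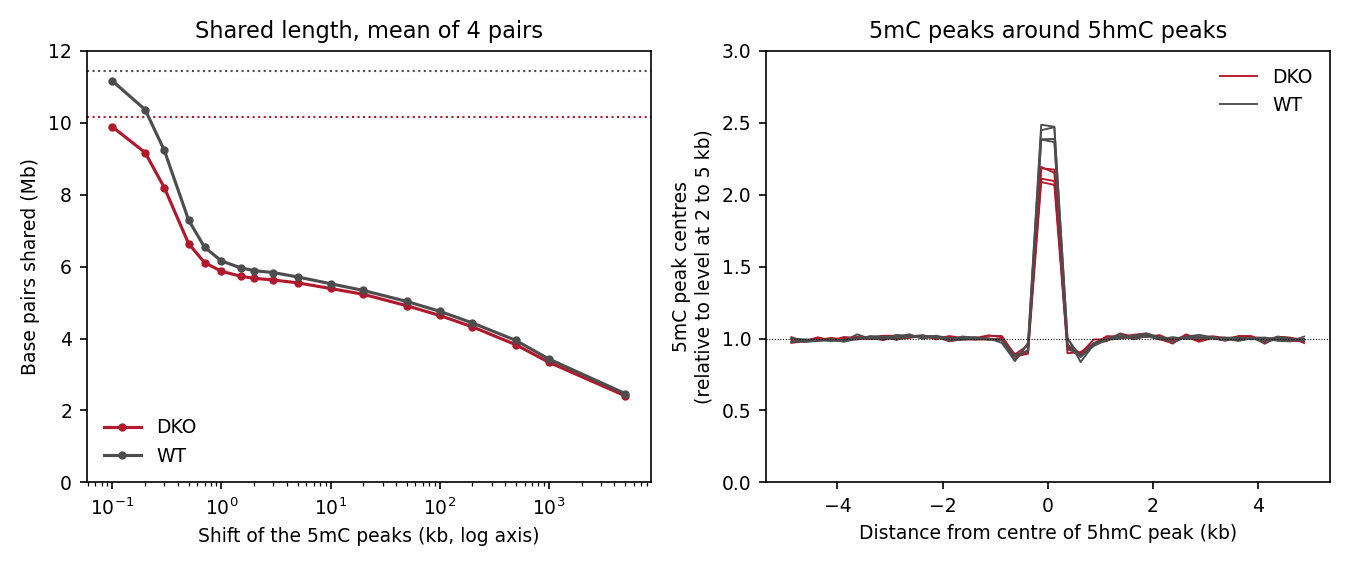
Left, length shared by 5hmC and 5mC peaks (Mb, mean of 4 pairs) by shift of the 5mC list (kb, log axis), with the unshifted length as a dotted line. Right, 5mC peak centres by distance from a 5hmC centre (kb), relative to the level at 2 to 5 kb, 1 line a pair. DKO is red and WT grey, and averaged over 250 bp on either side of the centre the DKO lines are at 2.08 to 2.18 and the WT lines at 2.37 to 2.48.

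Wide and high-scoring 5hmC peaks of DKO cells lay on 5mC most often. Under 400 bp, 8.73% and 8.53% of 5hmC peaks of the 2 libraries touched 5mC, at 800 to 1200 bp 24.9% and 25.8%, and at 2000 bp or more 53.2% and 55.4%. A wide peak also meets a moved 5mC peak more often. Relative to the moved lists the ratio ranged from 1.77 to 2.25 over the width classes in replicate 1 and from 1.81 to 2.36 in replicate 2. It was not highest in the widest class. The highest was at 600 to 800 bp in replicate 1 and at 1200 to 2000 bp in replicate 2, beside 2.18 and 2.32 at 2000 bp or more. Among 5hmC peaks with the authors' score of at least 300, 43.7% and 40.7% touched 5mC (2.38 and 2.51 times the moved lists), and among those from 50 to 70, 14.9% and 13.8% did (2.06 and 2.09 times). Of 5mC peaks with a score of at least 300, 32.8% and 35.3% touched 5hmC (2.64 and 2.75 times).

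In these libraries the marks of DKO cells had lower overlap than those of WT, by differences that 2 libraries per group could not call. The ratio of deposited to moved overlap averaged 2.14 and 2.23 for the 5hmC libraries of DKO and 2.41 and 2.40 for those of WT, a difference of -0.218. The share of 5hmC peaks on 5mC was 21.5% and 19.8% in DKO and 23.6% and 22.05% in WT, and the share of 5mC peaks on 5hmC was 23.5% and 23.4% in DKO and 25.7% and 25.01% in WT. For each of these 3 quantities both DKO values lay below both WT values. For 5hmC peaks on 5mC this held for the means over both 5mC lists, while single pairs overlapped, from 18.6% to 22.8% in DKO and from 21.03% to 24.7% in WT. That difference was -2.22 points, and -0.934 points without 5mC DKO replicate 2, -1.15 without 5mC WT replicate 2, -1.38 without 5hmC DKO replicate 2 and -1.42 without 5hmC WT replicate 1, with exact permutation p = 0.667 in these 4 cases and with same-numbered pairs alone. With 2 against 2 libraries the exact two-sided permutation test cannot give a p below 0.333, which is what each gave (adjusted 0.417 over 5 quantities). None of the differences therefore passed. The 5hmC libraries of DKO had a median gap of 2119 and 2247 bp, and those of WT one of 2012 and 2127 bp (exact permutation p = 0.667).

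Lists were then exchanged between genotypes, and the lower ratio went with the 5hmC lists. The 5hmC lists of DKO gave a mean ratio of 2.19 with 5mC of DKO, 2.17 with 5mC of Tet2KO and 2.06 with 5mC of WT. The 5hmC lists of Tet2KO gave 2.23, 2.21 and 2.09 with the same 5mC groups. The 5hmC lists of WT gave 2.52, 2.51 and 2.41 with them. With each 5mC group, 5hmC of either knockout thus had a lower mean ratio than 5hmC of WT. The 5mC lists of DKO gave a higher ratio than those of WT with 5hmC of every genotype. These 9 means reuse the same 11 lists and are not independent, and no test was made of them.

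Single 5hmC regions were then compared between DKO and WT by whether they lay on 5mC. Over the DKO and WT lists together there were 183215 5hmC regions. A peak in both DKO and neither WT libraries was found in 8749 of them (4.78%), and the reverse in 6884 (3.76%). Among the 25862 5hmC regions that lay on 5mC called in all 4 lists, 407 (1.57%) had 5hmC in DKO alone and 1325 (5.12%) in WT alone. Among the 129111 regions with no 5mC peak, 7685 (5.95%) had 5hmC in DKO alone and 4315 (3.34%) in WT alone. On shared 5mC the count in DKO alone was thus 0.307 times that in WT alone, and off 5mC it was 1.78 times. The first ratio was 0.306 to 0.489 with each library left out in turn, the highest without 5hmC DKO replicate 1. The second was 0.897 without 5hmC WT replicate 1, 1.18 without 5hmC WT replicate 2 and 2.69 without 5hmC DKO replicate 1. The ratio off 5mC was 5.80 times that on 5mC, and 2.66 to 8.23 times over 10 alternatives.

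**Figure D4:**
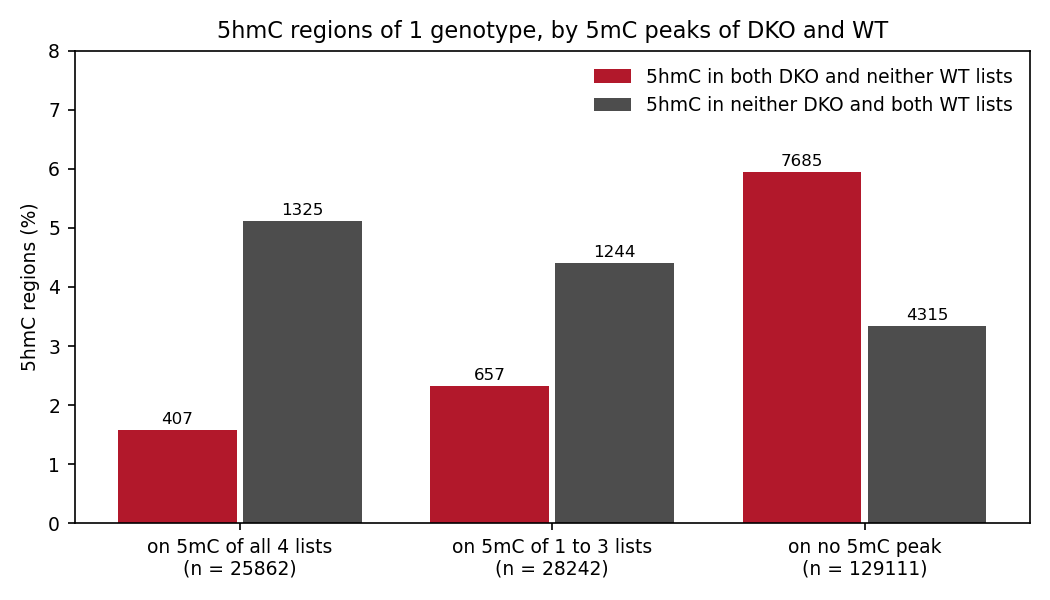
Share of 5hmC regions (vertical axis, %) with a peak in both DKO and neither WT libraries (red) or in neither DKO and both WT libraries (grey), by whether the region lies on 5mC called in all 4 DKO and WT lists, in 1 to 3, or in none. Numbers above the bars are regions: 407 against 1325 on 5mC of all 4 lists, and 7685 against 4315 on no 5mC peak.

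The 5hmC regions of DKO alone also lay farther from 5mC. Their median gap to the nearest 5mC peak of any of the 4 lists was 2106 bp, against 781.5 bp for regions of WT alone and 595 bp for regions called in all 4 5hmC lists. Median widths were 636 bp in DKO alone and 690 bp in WT alone, but 1071 bp for those called in all 4, whose gap is therefore not comparable at equal width. Of the regions of DKO alone 12.2% touched a 5mC peak, against 37.3% of those of WT alone and 39.8% of the wider regions called in all 4. Of all 183215 5hmC regions, 129111 touched no 5mC peak. These shares were not set against moved lists.

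In the mirror comparison, of 5mC regions by 5hmC, each ratio depended on single libraries, but their order did not. Over DKO and WT there were 203184 5mC regions, of which 5515 (2.71%) had a peak in both DKO and neither WT libraries and 5113 (2.52%) the reverse. On 5hmC called in all 4 lists there were 1243 5mC regions of DKO alone and 621 of WT alone, a ratio of 2.00, and off 5hmC 3536 and 3975, a ratio of 0.890. Without 5mC WT replicate 1 these ratios were 0.712 and 0.397, and without 5mC DKO replicate 2 they were 4.01 and 2.74. Without 5mC WT replicate 2 the ratio off 5hmC was 0.584. Neither ratio therefore kept its side of 1 over the libraries. The ratio off 5hmC was 0.444 times that on 5hmC, and 0.274 to 0.684 times over 10 alternatives.

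Over 100 kb bins the marks of DKO cells were dense in many of the same places. Spearman's rho between the covered shares of 24147 bins was 0.745 and 0.742 for 5hmC replicate 1 and 0.746 and 0.743 for replicate 2. For scale, rho was 0.969 between the 5hmC libraries and 0.950 between the 5mC libraries. Bins of 1 chromosome share neighbours, gene content, base composition and mappability, and each library enters 2 of the 4 values, so these are descriptions. By chromosome mean rho ranged from 0.668 on chromosome 13 to 0.816 on chromosome 17. For differences between neighbouring bins, which remove slow changes along a chromosome, it was 0.280, and over bins with a peak of both marks it was 0.596. The mean was 0.744 in DKO and 0.733 in WT (exact permutation p = 0.333, adjusted 0.417 over 5 quantities), a difference that did not pass. Both DKO libraries lay above both WT libraries in rho, while they lay below in peak overlap.

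The bins held by each mark overlapped unevenly. In DKO, 12758 bins (52.8%) held peaks of both marks, 6935 (28.7%) held 5mC alone, 343 (1.42%) held 5hmC alone and 4111 (17.02%) held neither. Nearly every bin with 5hmC thus had 5mC, but not the reverse. The 5mC lists also filled more bins, leaving 21.8% and 24.6% of all bins empty, against 49.5% and 47.1% for 5hmC. Unequal numbers of filled bins make such overlap uneven by themselves, so it is not read as a property of the marks. In the lowest 10% of bins ordered by 5mC, none of which held 5mC, 5hmC covered 0.0786% on average and 93.2% of bins lacked it. More bins than these held no 5mC, so the class is a cut among ties. In the 10% with the most 5mC, 5hmC covered 17.7% and 16.5% in the 2 libraries and 2.69% of bins lacked it. The densest 10% of bins held 56.3% and 54.5% of all 5hmC length and 42.2% and 42.9% of all 5mC length, and 1242 of 2414 bins (51.4% of each list) were in the densest 10% for both marks.

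To find bins with an unequal share of the marks, coverage was divided by each library's mean over all bins and tested with limma on log2(relative coverage + 0.25). Of 19601 bins tested, 4055 (20.7%) had higher relative coverage by 5hmC and 9151 (46.7%) by 5mC at an adjusted p under 0.05. Each mark is measured here against its own mean, so a call for 5mC can come from low 5hmC alone. Bins called for 5hmC had median coverages of 13.4% by 5hmC and 2.16% by 5mC. Bins called for 5mC had medians of 0% and 1.22%, and 4969 of them had no 5hmC in DKO. All 19601 tested bins had medians of 1.41% and 1.29%, and 6549 of them had no 5hmC in DKO. By these medians, bins called for 5mC had less 5hmC than the tested bins and no more 5mC. A bin without 5hmC lies below the mean of 5hmC by construction. Among the 7696 bins where both marks averaged at least 0.5 times their mean, 3124 were called for 5hmC and 1883 for 5mC.

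The bin with the smallest p for 5hmC lay on chromosome 16 at 92700001 to 92800000. There 5hmC covered 76.6% and 72.4% and 5mC 2.81% and 2.28% in DKO (log2 difference 3.37 ± 0.0934 SE, limma adjusted p = 1.87e-05). The bin on chromosome 8 at 119800001 to 119900000 was dense in both, with 72.8% and 66.3% 5hmC and 9.09% and 9.14% 5mC, and still leaned to 5hmC (log2 difference 1.59 ± 0.0491 SE, limma adjusted p = 1.87e-05). For 5mC the first bin lay on chromosome 8 at 46100001 to 46200000, with no 5hmC peak in any DKO or WT library and 12.6% and 13.3% 5mC in DKO (log2 difference -4.88 ± 0.136 SE, limma adjusted p = 1.87e-05). With 5hmC at 0 the size of this difference is set by the pseudocount, and it was -6.18 with 0.1 and -3.02 with 1. The next 4 5mC bins, on chromosomes 4, 15, 5 and 18, had 7.04% to 9.65% 5mC and no 5hmC peak either. All 10 bins named by the rule had the same direction in WT.

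A difference between DKO and WT in this balance was not called in any bin. The interaction of mark and genotype gave 0 of 19601 bins (0% called) in limma, with a smallest adjusted p of 0.318 and 1712 bins at an unadjusted p under 0.05. Without 5mC DKO replicate 1 it called 227 bins, and with bins of all coverages tested it called 198. On chromosome 13 at 29300001 to 29400000, 5hmC covered 2.16% and 2.22% in DKO and 0% in both WT libraries, while 5mC covered 1.41% and 1.10% in DKO and 1.98% and 1.49% in WT (difference of log2 differences 1.92 ± 0.251 SE, limma adjusted p = 0.318). This value follows the pseudocount too, at 2.97 with 0.1 and 0.78 with 1. The bin was among those called without 5mC DKO replicate 1 (2.03, limma adjusted p = 0.0495). The rule named 3 bins in each direction, so as many leaned the other way. On chromosome 18 at 14900001 to 15000000, 5hmC covered 0% in both DKO libraries and 1.38% and 1.04% in WT. No DKO or WT library had 5mC there (difference of log2 differences -1.04 ± 0.161 SE, limma adjusted p = 0.318). The sign of the difference between the marks in DKO was found in WT for 3962 of 4055 bins called for 5hmC and 9008 of 9151 called for 5mC, beside 17918 of all 19601 bins tested.

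The balance of the marks varied by chromosome. The share of all 5hmC length on a chromosome, divided by its share of all 5mC length, was highest on chromosomes 16, 6 and 11 (each 1.13 in DKO) and lowest on chromosomes 4, 8 and 5 (0.886, 0.889 and 0.892). In DKO both 5hmC libraries lay above both 5mC libraries on 8 chromosomes and below both on 6, and they overlapped on 5. In WT these counts were 9, 7 and 3, and no chromosome had opposite orders in DKO and WT.

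**Figure D5:**
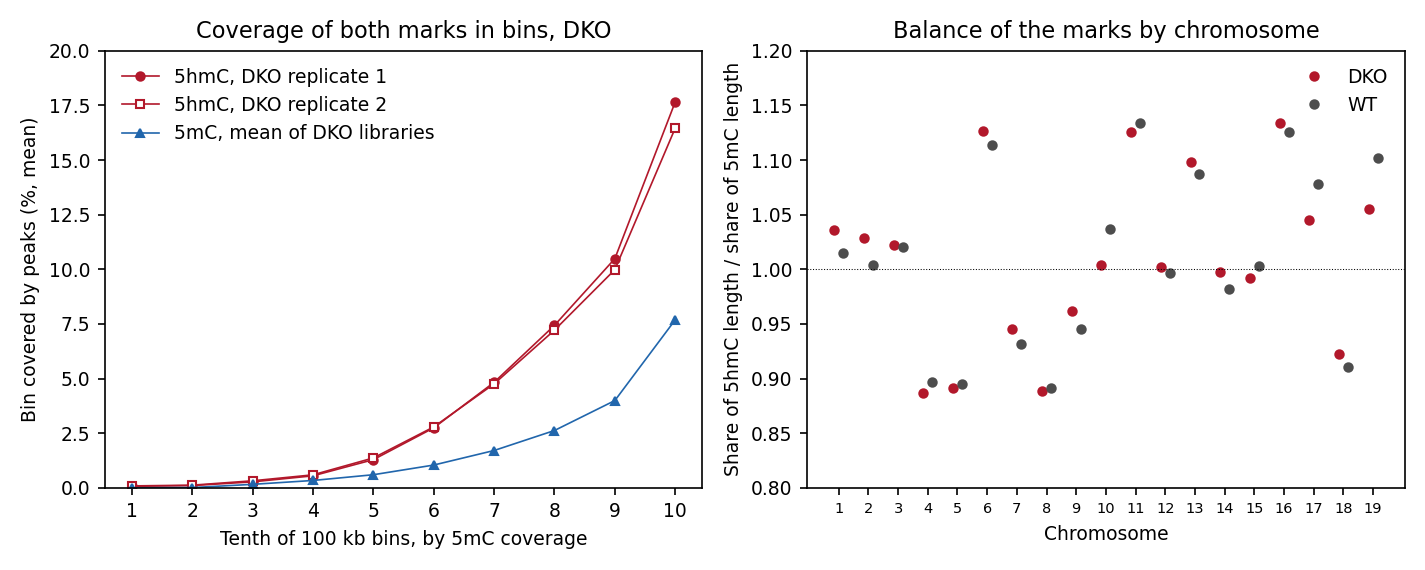
Left, mean share of 100 kb bins covered by 5hmC (2 DKO libraries, red) and 5mC (mean, blue) for 10 equal classes of bins ordered by 5mC, with 5hmC reaching 17.7% and 16.5% in the top class. Bins without 5mC are ties that fill the lowest class and part of the next. Right, share of 5hmC length over share of 5mC length by chromosome in DKO (red) and WT (grey), from 0.886 on chromosome 4 to 1.13 on chromosome 16 in DKO.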

How the data were processed

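The deposited files used are 1 peak list per library, without header or pooling, each peak with a position and a score given by the authors. The lowest score was 50, and the scores look like MACS p-values on a negative log10 scale times 10, which no header states. The submitters' processing notes name MACS 1.4.2, Bowtie 0.12.9, CASAVA 1.4, Cuffdiff 2.2.1 and TopHat2 2.0.8, without saying which step each served, and give mm9 as the build. Whether a control library was used, whether duplicate reads were removed and how deep each library was read is not given in the sources used here. With the depth unknown, no precision from counting reads can be given, and the number and width of peaks can follow depth.

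The members, comparisons and lists were chosen with earlier results of these data known. Positions are mm9, counted from 1. Overlap means at least 1 bp. For the level without alignment of the marks, 1 list was moved by 100 kb in each direction, wrapping from the last to the first peak of a chromosome, and both directions were averaged. The move keeps chromosome and spacing but not gene content. Regions are peaks of all lists of a mark merged where they overlap. Gaps were measured between peak edges. In limma, bins of 100 kb with a peak in at least 2 of the 8 DKO and WT libraries entered 1 fit of the 4 groups with a trend in the prior variance. Adjusted p-values are Benjamini-Hochberg over all bins. Named bins are the 5 with the smallest p for each mark and the 3 for each direction of the interaction. Exact permutation tests used the mean over both 5mC lists for each 5hmC library. The 2 values of a genotype therefore share their 5mC lists, and these tests do not carry the spread between 5mC libraries.

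Alternatives were a minimum score of 100, an equal number of top peaks, other moves, overlaps, bins, pseudocounts and filters, pairing by number, and each library left out. The ratios of regions in 1 genotype alone, their alternatives and the correlation of neighbouring bins were added after seeing the data. Procedures were tested on simulated data. Python 3.11.15, numpy 2.4.6, scipy 1.17.1, matplotlib 3.10.9, R 4.3.3 and limma 3.58.1 were used. The single 5mC Tet2KO library has number 2 in its title and 1 in the name of its list, and the title was followed. The 17 RNA-seq samples were not analysed here. No genome or annotation of mm9 was used here, so the planned gene lists were not run, and no genes or sequences are given for positions.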

Additional observations from a re-analysis of the deposited data

Results flagged for a closer look

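Chromosome X lay outside the compared chromosomes. There the 5hmC libraries of DKO had 521 and 614 peaks, and those of WT had 445 and 449. Chromosome X was taken up because both DKO libraries lay above both WT libraries, so that order is not a finding. Over all chromosomes the 5hmC lists held 130077 and 143960 peaks in DKO and 128471 and 135265 in WT. Of the chromosome X peaks 14.0% and 13.2% touched a 5mC peak in DKO and 19.3% and 19.04% in WT. The 5hmC libraries of Tet2KO had 693 and 622 peaks on this chromosome. The sex of the animals was not used here, and its part in these counts was not tested.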

How the results depend on the processing

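In DKO, 5hmC peaks on 5mC averaged 20.6%, 5mC peaks on 5hmC 23.4%, the overlap ratio 2.19, the gap 2183 bp and Spearman's correlation of bins 0.744. A minimum score of 100 gave 15.5%, 17.4%, 2.45, 4568 bp and 0.673, and the equal number of top peaks moved the correlation to 0.738. Requiring overlap of at least 50% of the peak gave 7.06% and 21.4%. The ratio was 1.88 with a move of 10 kb and 3.04 with 1 Mb, and the gap was 2739 bp between centres. The correlation of bins was 0.430 in 10 kb bins, 0.903 in 1 Mb bins, 0.596 in bins with both marks, 0.664 as Pearson's r and 0.280 for neighbouring bins. Without 1 library each, the ranges were 19.3% to 21.9%, 22.9% to 24.0%, 2.14 to 2.23, 1917 to 2450 bp and 0.743 to 0.746. DKO minus WT then ranged from -3.50 to -0.934 points, -2.47 to -1.35 points, -0.262 to -0.174 for the ratio and 0.00875 to 0.0141 for the correlation, all of 1 sign. The gap difference ranged from -152.9 to 379.9 bp and turned to -152.9 bp without 5mC DKO replicate 2 and -49.6 bp without 5mC WT replicate 2. Called bins ranged from 3351 to 4028 for 5hmC, 7512 to 9117 for 5mC and 0 to 227 for the interaction, 227 being without 5mC DKO replicate 1 (smallest adjusted p = 0.0495 in limma). Bins of 1 Mb gave 654 and 1344 of 2404, both marks at 0.5 times their mean or more gave 3124 and 1883 of 7696, and no filter gave 198 interaction bins. The cause of these changes was not tested, except that fewer bins were tested under the filters and at 1 Mb. The ratios of regions in DKO alone over WT alone ranged from 0.306 to 0.489 (5hmC on 5mC), 0.897 to 2.69 (5hmC off 5mC), 0.712 to 4.01 (5mC on 5hmC) and 0.397 to 2.74 (5mC off 5hmC). The last 3 turned to 0.897 without 5hmC WT replicate 1, 0.712 without 5mC WT replicate 1 and 2.74 without 5mC DKO replicate 2. The deviations of same-numbered 5hmC and 5mC libraries had r of 0.00571 in DKO and -0.00231 in WT over 19601 bins. Libraries of the same animal could give such values too, so whether same-numbered libraries share an animal stays unknown. With the replicate block 4043 and 9117 bins were called and 0 for the interaction. Same-numbered pairs alone gave 20.7%, 23.5%, a ratio of 2.19, 2188 bp and a correlation of 0.744. Named bins kept their sign and side of the threshold in 240 of 248 alternative fits and passed newly in 8, all for the interaction. Fits whose filter left a named bin out are not counted. With both marks at 0.5 times their mean or more, no named 5mC or interaction bin was tested. At a minimum score of 100 some interaction bins were not tested either. Unknown depth limits every count of peaks, and 2 libraries per group limit every comparison of DKO with WT.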
